A study of Mus musculus with 8 samples.

Results

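The bright minus-strand plateau between Ube3a and Snrpn on mouse chromosome 7 is a 270-kb stretch (66600001 to 66870000, mm9) in which nearly every probe for minus-strand RNA gave a strong signal in newborn wild-type cortex. Its members are the 2331 minus-strand probes with a lower coordinate in that stretch, out of 53834 distinct probes on the array, after leaving out the windows 50 to 60 kb and 150 to 160 kb above the border toward Ube3a. Of the members, 2272 are custom probes and 59 are catalogue probes, and the 2 left-out windows hold 182 more. The stretch was chosen by the red signal of these same wild-type arrays, so the brightness of the plateau in wild type is given as a description and supports nothing else. Contrasts against wild type use those arrays too.

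Newborn C57BL/6 mice (postnatal day 0) gave the cortical RNA. The 8 arrays form 5 groups. Total RNA was measured in wild type (n = 2), in mice lacking the DNA between Snrpn and Ube3a on the chromosome inherited from the mother (del s-u/+, n = 1), in mice lacking it on the paternal chromosome (del +/s-u, n = 1), and in mice that combine the maternal deletion with a deletion of the Snrpn promoter on the paternal chromosome, called the double deletion here (n = 2). The fifth group is polyA RNA purified from the total RNA of the same 2 wild types. The double deletions carry different promoter deletions, named 0.9 and 4.8, and title and genotype label contradict each other on which sample has which, so no value is assigned to either. The labels name nothing that would limit a deletion to some cells, the maternal deletion is shared by the del s-u/+ and double-deletion mice, and the single deletions have 1 sample each. The labels do not give the number of animals per sample, and the p-values cover the spread among these samples only, which may be technical. The cell types of the cortex could not be checked by marker genes, because the probes carry positions and no gene names. In bulk RNA, fewer cells that make a transcript and less RNA per cell cannot be told apart.

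The region from Snrpn to Ube3a is an imprinted domain, in which genes are read from the chromosome of one parent only. In neurons the paternal chromosome makes one very long minus-strand transcript that begins at the Snurf-Snrpn promoter, carries clusters of C/D box small nucleolar RNAs in its introns in many tandem copies, and continues as the antisense of Ube3a, a ubiquitin ligase gene read from the maternal chromosome. Loss of the paternal transcripts is the basis of Prader-Willi syndrome and loss of maternal UBE3A that of Angelman syndrome. RefSeq's gene order for GRCm38.p6 lists 206 small nucleolar RNA genes between Ube3a and Snurf, 134 of them between Ube3a and Ipw and 72 between Ipw and Snurf. That build differs from the array's, so which of them lie in the plateau was not mapped.

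Per the labels, the double deletion removes the Snrpn promoter on the paternal chromosome. RefSeq's window for Snurf, shared with Snrpn, is printed here from 250 bases before to 50 after the annotated start (GRCm38.p6, chr7:60005150-60005449, minus strand), with each CG in capitals because DNA methylation falls on CG and this promoter is imprinted.

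Snurf-Snrpn: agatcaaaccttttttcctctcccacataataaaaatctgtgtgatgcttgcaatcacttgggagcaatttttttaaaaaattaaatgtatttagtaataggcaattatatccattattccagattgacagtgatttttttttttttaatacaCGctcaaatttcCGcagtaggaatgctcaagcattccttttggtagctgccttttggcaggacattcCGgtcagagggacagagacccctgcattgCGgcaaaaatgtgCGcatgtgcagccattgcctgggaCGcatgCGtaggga

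It holds 7 CG in 300 bases. CG, which reads the same on both strands, was present in 94.6% of the 32851 mouse promoter windows of this length, and 52.1% held at least as many. The ends of the 0.9 and 4.8 deletions are not given in the sources used here, so whether either removes the printed window could not be checked. Member probe sequences are not given there either, so members are identified by position.

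Members were compared as log2 red signal minus each array's own 75th percentile over the probes that lie outside the locus, so that this percentile is 0 on every array. The custom probes are 60-mers spaced exactly 110 bp apart. Over all spots the median red intensity ranged from 98 to 161 with total RNA, where the local background was 36 to 38. It was 45 and 44 with polyA RNA, where the background was 34. All members were well above background on both wild-type total RNA arrays and none was saturated on any array. Every one therefore entered the comparisons through the wild types, except that 3 custom members with an outlier mark on the paternal-deletion array left 2269 in the total RNA tests.

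In wild type the custom members had a mean level of 5.51 in replicate 1 and 5.30 in replicate 2, or 5.41 ± 0.15 (SD, n = 2). Their median raw intensity was 7625.5 and 6341.75. The maternal deletion had a mean of 5.26, the paternal deletion -0.02, the double deletions 1.81 and 4.14, and polyA RNA 1.74 and 1.50. The paternal deletion and both double deletions lay below both wild types, the 2 double deletions stood far apart from each other, and the maternal deletion lay just below the lower wild type. In raw intensity the median custom member had 7142 in the maternal deletion and 85.5 in the paternal deletion. It had 527 and 3034 in the double deletions, and 149 and 121.5 in polyA RNA. In the paternal deletion 96.0% of the custom members were called well above background by the scanner software, where 83.7% of all spots were.

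**Figure D1:**
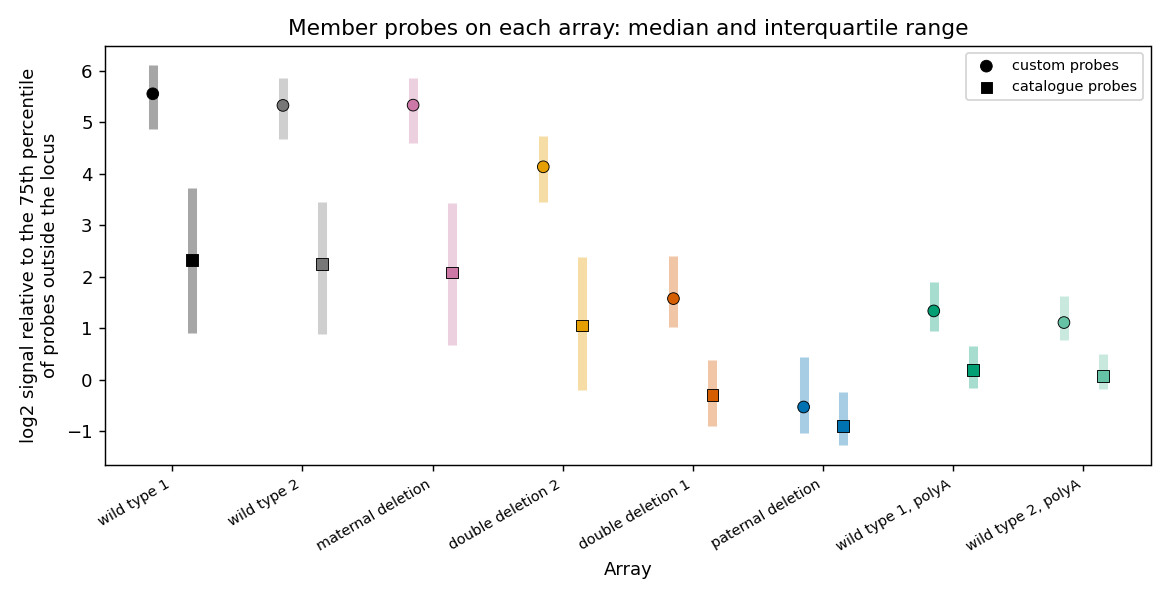
Median (symbol) and interquartile range (bar) of the log2 signal of the 2272 custom members (circles) and the 59 catalogue members (squares) on each of the 8 arrays, with the 75th percentile of outside-locus probes at 0. The maternal deletion lies with the wild types, the 2 double deletions are apart at custom medians of 1.57 and 4.14, and the paternal deletion is lowest at -0.53.

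Catalogue members gave weaker signals with the same order of the total RNA arrays. Their mean was 2.31 and 2.16 in the wild types, or 2.24 ± 0.10 (SD, n = 2). It was 2.08 in the maternal deletion, -0.53 in the paternal deletion, -0.12 and 1.06 in the double deletions, and 0.36 and 0.31 in polyA RNA. Of the 59, 37 lie in the first 10 kb of the plateau, where the mean wild-type level of the catalogue probes was 1.85, and the 22 others had 2.88. Where a catalogue and a custom member overlap by at least 30 bases (34 pairs), the catalogue probe was the dimmer one in 30, with a median wild-type level of 1.73 against 3.69. Both kinds were therefore kept apart throughout. Levels of different probes depend on their sequences as well as on the RNA.

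Along the plateau, custom probes were averaged in 25 windows of 10 kb. The mean of the wild types ran from 4.38 (66630001 to 66640000) to 5.85 (66810001 to 66820000), with a median of 5.43. At the border toward Ube3a the level stepped from 2.05 in the window just outside (66590001 to 66600000) to 4.55 in the first window inside. At the border toward Snrpn it went from 5.35 in the last window inside to 3.51 just outside (66870001 to 66880000) and 1.73 in the window after that. The order of the probes was compared between arrays. Across the 2272 custom members the Pearson correlation was 0.987 between the wild types, 0.990 between wild type 1 and the maternal deletion, and 0.961 and 0.749 between wild type 1 and double deletions 2 and 1. It was 0.683 between wild type 1 and its own polyA RNA, and 0.188 between wild type 1 and the paternal deletion. These correlations run across probes that share their libraries and are a description.

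**Figure D2:**
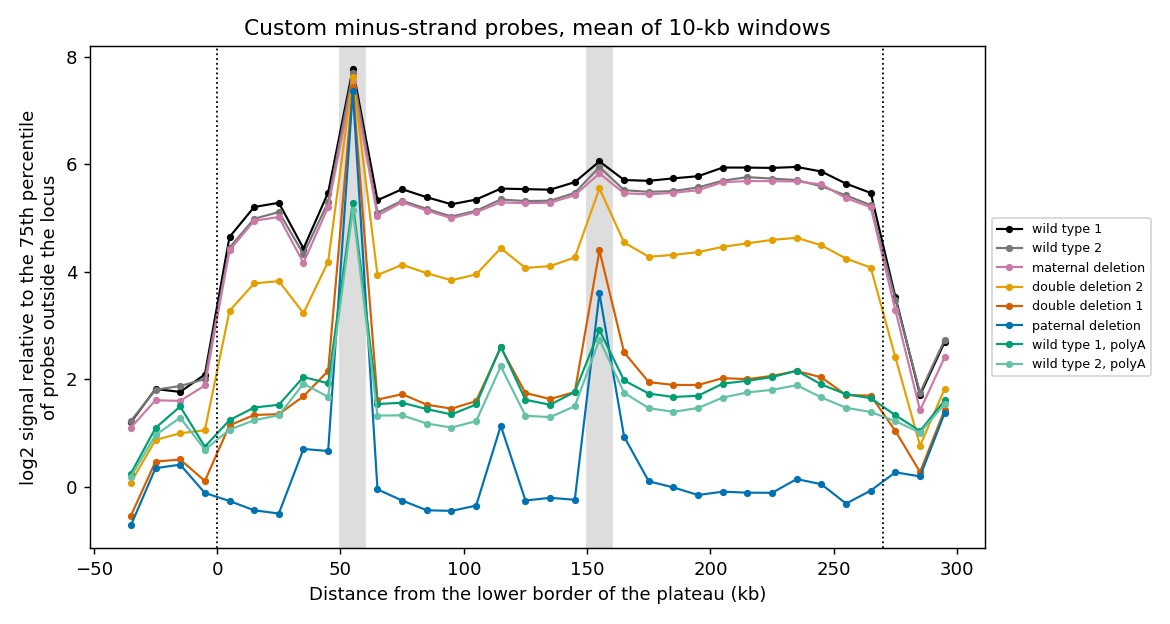
Mean log2 signal of custom minus-strand probes in 10-kb windows on each of the 8 arrays, against distance from the lower border of the plateau (dotted lines at both borders, grey for the 2 left-out windows). Wild type and maternal deletion run together between 4.17 and 5.95 inside the plateau. The paternal deletion stays between -0.50 and 1.14, and in the left-out windows it reaches 7.36 and 3.60.

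The plus strand of the same positions was mostly dim. The custom probes for the plus-strand RNA at the members' own positions, called their partners, had a mean wild-type level of 0.26 ± 0.07 (SD, n = 2), with 0.22 in the maternal deletion. In the paternal deletion the median partner had -0.45, against -0.53 for the custom members, and 90.7% of the partners were well above background. Of the 2272 members, 233 (10.3%) had a partner with a wild-type level above 2.

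The paternal deletion asks how much of the plateau's RNA comes from the paternal chromosome, since only the maternal copy of the stretch remains there. The custom mean was -0.02 there against 5.51 and 5.30 in the wild types, a log2 difference of -5.43, or 43.1-fold. The median difference over the custom members was -5.68, against -0.02 over all probes tested, and 2242 of 2269 were below the wild-type mean. Catalogue members differed by -2.76 in the mean, with all 59 below the wild-type mean. The window differences ran from -5.96 (66810001 to 66820000) to -3.68 (66630001 to 66640000). These windows also had the highest and the lowest wild-type level, at 5.85 and 4.38. The paternal-deletion signal had a median raw intensity of 85.5 against a background of 36. Whether this low signal ties the window differences to the wild-type level was not tested. The second window also holds members, described below, that kept their level.

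The test of this difference turned on the double deletions. With both of them as 1 group, whose spread every contrast shares, the SE was 1.17 for the custom mean (95% interval -9.13 to -1.73, limma adjusted p = 0.128) and 0.59 for the catalogue mean (adjusted p = 0.128). In that fit limma called 0 of 2269 custom members at an adjusted p under 0.05, with 2199 lower at an unadjusted p under 0.05, and 0% of all 49384 probes tested were called lower. Shares of all probes called refer to the adjusted p. The share at an unadjusted p was not counted, here or below, so unadjusted counts say nothing particular to the members. With each double deletion as a group of its own, only the 2 wild types set the spread. The SE of the custom mean was then 0.10 (95% interval -5.73 to -5.12, adjusted p = 5.35e-05), and the catalogue mean had an adjusted p of 0.000114. That fit called 2206 custom members and 56 catalogue members lower, where 14.2% of all probes were called lower, and all 25 windows, where 18.9% of all 662 windows were. Both fits set 1 paternal-deletion sample against 2 wild types. The background correction adds an offset of 50, which makes differences of dim signals smaller, and with plain background subtraction the custom difference was -6.82.

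The member with the largest decrease in the paternal deletion lies at 66744185 to 66744244 (RC_CUST_7761). It had raw intensities of 38510 and 33827.5 in the wild types and 85 in the paternal deletion, a log2 difference of -8.41. The custom member nearest the median wild-type level (RC_CUST_8229, 66795665 to 66795724) had 7204.5 and 6634 in the wild types, 7718 in the maternal deletion, 114 in the paternal deletion, 563.5 and 3201.5 in the double deletions, and 155.5 and 124 in polyA RNA. It shows the common pattern: maternal deletion as wild type, double deletions in between and apart, paternal deletion lowest. Among catalogue members the one nearest the median (RC_A_67_P06211242, 66604326 to 66604385) went from 796 and 735 in the wild types to 43 in the paternal deletion. The largest catalogue decrease (RC_A_67_P14808708, 66748601 to 66748660) was -5.76, from 3779 and 3305 to 43. The smallest (RC_A_67_P14808663, 66600319 to 66600378, at the edge of the plateau) was -0.13, with 8613 and 7002.5 in the wild types and 6887 in the paternal deletion.

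A small number of members did not follow. Of the custom members, 78 (3.43%) had a paternal-deletion level less than 1 below the wild-type mean on the log2 scale. This threshold was chosen after the values were seen, so what follows is a description, and the members just inside and just outside it had -0.98 and -1.02. The 78 had a median level of 5.58 in the paternal deletion against 5.59 in wild type. Of them, 65 lie in 4 runs (at least 3 such members, with gaps of at most 10 probe steps), and 13 stand alone. One of the 13 (66600305 to 66600364) overlaps the catalogue member with the smallest change. Another of the 13, RC_CUST_6517 (66607345 to 66607404), was the dimmest custom member in wild type. It had raw intensities of 88.5 and 76 in the wild types and 35 in the paternal deletion, where the background was 36. That member met the threshold without keeping its signal. Without the 78, the mean paternal difference of the custom members was -5.61.

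The longest run (66635725 to 66640404) covers 4.68 kb near the Ube3a end, and 26 of its 43 custom members kept their level. Those 26 had 3.62 and 3.59 in the wild types, 3.33 in the maternal deletion, 2.99 in the paternal deletion, 2.71 and 2.93 in the double deletions, and 3.21 and 3.14 in polyA RNA. In this run the wild types were the highest arrays, and polyA RNA lay above the paternal and double deletions. The second run (66649365 to 66649974, 6 of 6 members) touches the first left-out window. It had 7.49 and 7.29 in the wild types, 7.20 in the maternal deletion, 7.33 in the paternal deletion, 7.30 and 7.40 in the double deletions, and 4.82 and 4.57 in polyA RNA. The paternal and double deletions lay between the wild types, the maternal deletion lay just below them, and both polyA arrays were lower than all total RNA arrays.

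The third run (66712175 to 66714214, 19 of 19 members) was bright on all 8 arrays. It had 5.69 and 5.67 in the wild types, 5.55 in the maternal deletion, 5.79 in the paternal deletion, 5.68 and 5.84 in the double deletions, and 6.00 and 5.47 in polyA RNA. Its last member (RC_CUST_7488, 66714155 to 66714214) had the highest paternal difference of all, 0.47. The fourth run (66760025 to 66761514, 14 of 14 members) borders the second left-out window. It had 6.63 and 6.64 in the wild types, 6.67 in the paternal deletion, 6.58 and 6.86 in the double deletions, and 4.33 and 4.06 in polyA RNA.

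**Figure D3:**
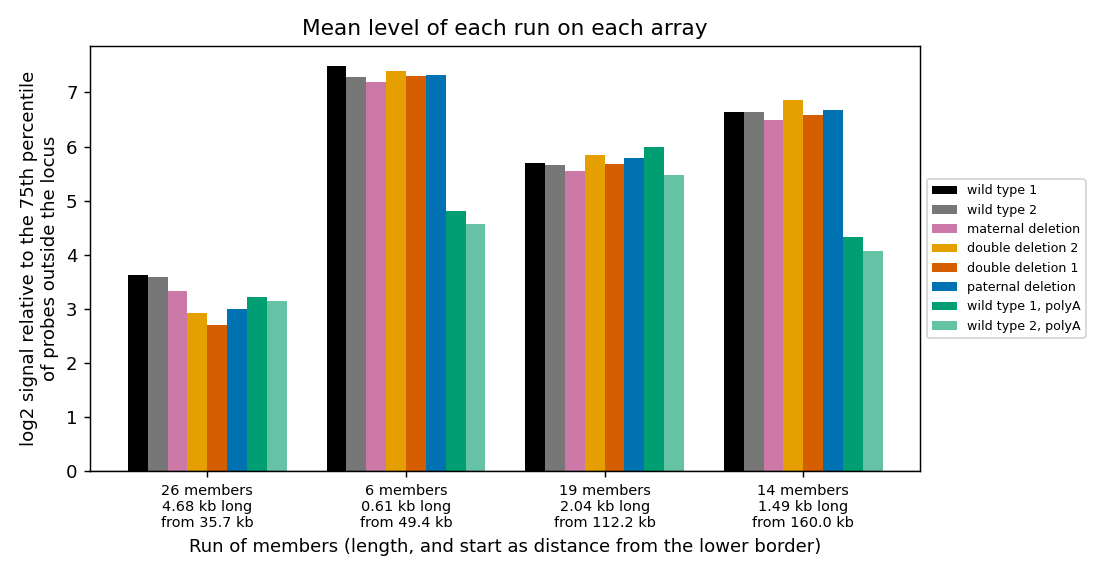
Mean log2 signal on each of the 8 arrays, with the 75th percentile of outside-locus probes at 0, for the members that kept their level in the paternal deletion, in the 4 runs they form. In the 3 runs nearer Snrpn the bars of the 6 total RNA arrays are nearly level, and in the middle one of these polyA RNA stands at 6.00 and 5.47, about as high as total RNA.

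Plus-strand signal lay opposite these runs. The mean wild-type level of the partners was 3.81 in the first run, 5.38 in the second, 8.23 in the third and 4.92 in the fourth. Of the 78 members, 63 had a partner above 2, and the median partner level was 4.81, against -0.21 for the other custom members. In the paternal deletion the partners of the third run had 8.17. Across all custom members tested the median paternal difference was -4.56 where the partner was above 2 and -5.82 elsewhere. Whether minus-strand probes read some plus-strand RNA at these positions was not tested.

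The 2 left-out windows showed the same kind of signal over more of their length. Their 182 probes had a mean of 6.87 ± 0.06 (SD, n = 2) in wild type, 6.68 in the maternal deletion, 5.48 in the paternal deletion, 6.25 ± 0.47 (SD, n = 2) in the double deletions and 4.02 ± 0.11 (SD, n = 2) in polyA RNA. On each total RNA array 3 to 19 of these probes were saturated, so differences there can be understated. In the left-out window nearer Ube3a the paternal deletion had 7.36 against 7.78 and 7.70 in the wild types, and in the one nearer Snrpn it had 3.60 against 6.05 and 5.95.

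The maternal deletion asks the same of the maternal chromosome. Its custom mean of 5.26 lay below both wild types, close to wild type 2. All 25 windows were slightly below the wild-type mean, with differences from -0.21 to -0.10, and 1336 of 2272 custom members were below both wild types while 75 were above both. The share of all probes below both wild types was not counted. The median difference was -0.15 over the custom members and -0.07 over all probes tested, so a small fall was not particular to the plateau. The difference of the custom mean was -0.15, with a 95% interval of -3.85 to 3.55 and an adjusted p of 0.974 in limma with the double deletions as 1 group. With them as separate groups the interval was -0.46 to 0.15 and the unadjusted p 0.228. In the first fit 0 custom members were called (4 lower at an unadjusted p under 0.05), and 0% of all probes were called lower. In the second, 7 were called lower, where 1.21% of all probes were, and 0 of 25 windows, where 9.21% of all windows were. Catalogue members differed by -0.16 in the mean. The mean passed the test in neither fit.

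The double deletion measures the plateau when the paternal chromosome keeps its DNA but lacks the Snrpn promoter. Replicate 1 had a custom mean of 1.81 and replicate 2 had 4.14, against 5.51 and 5.30 in the wild types and -0.02 in the paternal deletion. Both were below both wild types, in 2246 and 2230 of 2272 custom members, and both were above the paternal deletion. The share of all probes below both wild types was not counted. With both replicates as 1 group, the median difference was -2.57 over the custom members tested, against -0.09 over all probes tested. The median difference from wild type was -3.85 in replicate 1 and -1.31 in replicate 2. Replicate 1 was below replicate 2 in 2259 of 2272 custom members, by a median of -2.51, or 5.71-fold. Along the plateau the window differences ran from -3.85 to -2.70 in replicate 1 (median -3.69) and from -1.37 to -1.01 in replicate 2 (median -1.30). In both replicates they were smallest at 66630001 to 66640000, 66710001 to 66720000 and 66760001 to 66770000. Those windows hold runs of members that kept their level in the paternal deletion. Catalogue members had median differences of -2.41 and -1.17. Because the replicates carry different promoter deletions, a difference between the alleles and one between samples cannot be told apart.

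With both replicates as 1 group the custom mean differed from wild type by -2.43 (SE 0.95, 95% interval -5.45 to 0.59, limma adjusted p = 0.228) and the catalogue mean by -1.76 (SE 0.49, adjusted p = 0.128). In that fit 19 custom members were called lower (611 at an unadjusted p under 0.05), where 2.88% of all probes were called lower, so the share of custom members was below the background. Of the 59 catalogue members, 8 were called lower, a share above those 2.88%. With separate groups the adjusted p was 0.000173 for the custom mean and 0.000182 for the catalogue mean. That fit called 2222 custom members lower and 1 higher, where 21.1% of all probes were called lower and 14.8% higher, and all 25 windows lower, where 31.1% of all windows were. Without replicate 1 the custom difference was -1.27, and without replicate 2 it was -3.60.

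Against the maternal deletion, which shares the maternal allele, the custom mean of the double deletions differed by -2.28 (SE 1.17, limma adjusted p = 0.512), with 0 custom members called, 98 lower at an unadjusted p under 0.05, and 0% of all probes called lower. With separate groups the adjusted p was 0.000694. That fit called 2192 custom members lower and 1 higher, where 15.7% of all probes were called lower and 3.53% higher, and all 25 windows, where 17.5% of all windows were. This comparison shares its double-deletion samples with the one against wild type.

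PolyA RNA asks how much of the plateau's RNA is retained on oligo(dT) beads, which bind polyadenylated RNA. The custom mean was 1.74 and 1.50 in polyA RNA against 5.51 and 5.30 in total RNA of the same 2 wild types, and the groups did not overlap. The mean fell by 3.79 on the log2 scale (SE 0.12, limma adjusted p = 4.07e-05), or 13.8-fold. This size depends on the scale and the background correction, as given below. The pairs had median differences of -4.02 and -4.00 over the custom members, against a median of -0.14 over all probes tested. Limma called 2237 of 2272 custom members lower and 4 higher, where 40.8% of all 43871 probes were called lower and 32.2% higher. All 25 windows were called lower, where 40.6% of all windows were. Their differences ran from -4.09 (66790001 to 66800000) to -2.40 (66630001 to 66640000). The catalogue mean fell by 1.90 (SE 0.06, adjusted p = 4.35e-05), with 55 of 59 called lower and 2 higher. The lowest catalogue level was -0.34 and -0.35 in polyA RNA, against -0.93 and -0.91 in total RNA of the wild types. The lowest raw catalogue intensities were 34 and 33 in polyA RNA, against 62.5 and 59. A dim member can thus score higher in polyA RNA while its raw signal is lower.

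These sizes are relative to the other probes of the same array. A scale on the 75th percentile of all probes, most of which lie in the locus, adds 1.29 and 1.40 to the log2 values of the polyA arrays relative to wild type, 1.25 to the paternal deletion, 0.81 and 0.12 to the double deletions and 0.03 to the maternal deletion. On that scale the custom mean in polyA RNA differed by -2.44 and the catalogue mean by -0.56. It called 2198 custom members lower and 52 higher, and 33 catalogue members lower and 14 higher, where 17.4% of all probes were called lower and 73.4% higher. For the paternal deletion the same scale called 9.59% of all probes lower and 72.1% higher, with 2123 custom members lower and 38 higher. In polyA RNA the probes outside the locus were dim too, with 38.4% and 33.9% well above background against 62.0% to 68.5% on the total RNA arrays. The custom members were well above background in 99.8% and 99.6% of cases there. The 75th percentile of the outside probes, which sets the scale, had raw intensities of 47 and 46 on the polyA arrays. Their background was 34. On the total RNA arrays that percentile was 135 to 161.4. Plain background subtraction gave -2.71 for the custom mean in polyA RNA, and the scanner software's processed signal gave -1.58.

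Another bright plateau of 130 kb, which begins 60 kb past the border toward Snrpn (727 custom minus-strand probes), was as bright in wild type, at 5.66 ± 0.04 (SD, n = 2), but it responded differently to polyA selection. Its polyA level was 3.70 ± 0.07 (SD, n = 2) against 1.62 ± 0.17 (SD, n = 2) for the members. The members' change was more negative by 1.82 (SE 0.08, limma adjusted p = 0.000107, test of the difference between the plateaus within each array, in which the scale cancels). In the paternal deletion the other plateau had a mean of 1.78 against -0.02 for the members, and a median of 0.58 against -0.53. That difference of changes was -1.55 (adjusted p = 0.189 with the double deletions as 1 group, 0.000771 as separate groups). For the double deletion it was -0.43 (adjusted p = 0.568, or 0.0123 as separate groups), and 0.061 without replicate 1. The 2 sets were not filtered alike, since the members leave out 2 bright windows and the other plateau leaves out none. With the left-out windows put back, the difference was -1.75 in polyA RNA, -1.25 in the paternal deletion and -0.29 in the double deletion. Saturated probes were present in the other plateau and absent among the members, so changes of the other plateau can be understated.

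Within the plateau the signal of the custom members repeated itself. The wild-type level of a member correlated with that of the member 17 probe steps (1870 bp) away at Pearson r = 0.75 (2221 pairs of probes), whereas 16 and 18 steps gave 0.07 and 0.08. The correlation was 0.70 at 34 steps and 0.66 at 51 steps. Of all distances up to 60 steps, 17 gave the highest correlation on every array, with 0.76 in polyA RNA of wild type 1 and 0.55 in the paternal deletion. Nearest the Snrpn end, over the 105 kb from 66765001 to 66870000, it reached 0.88 in wild type, 0.95 in polyA RNA and 0.89 in the paternal deletion (937 pairs). The partners on the plus strand had 0.47 at the same distance. The other bright plateau had 0.10 at 17 steps, and its wild-type correlation was highest at 23 steps (2530 bp, r = 0.52, 681 pairs). Pairs of probes share their arrays and are not replicates, so these values carry no test, and the step lengths were read from the data. Whether probes a repeat apart have alike sequences, and so could bind each other's RNA, was not tested, and members are not independent measurements of the RNA.

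**Figure D4:**
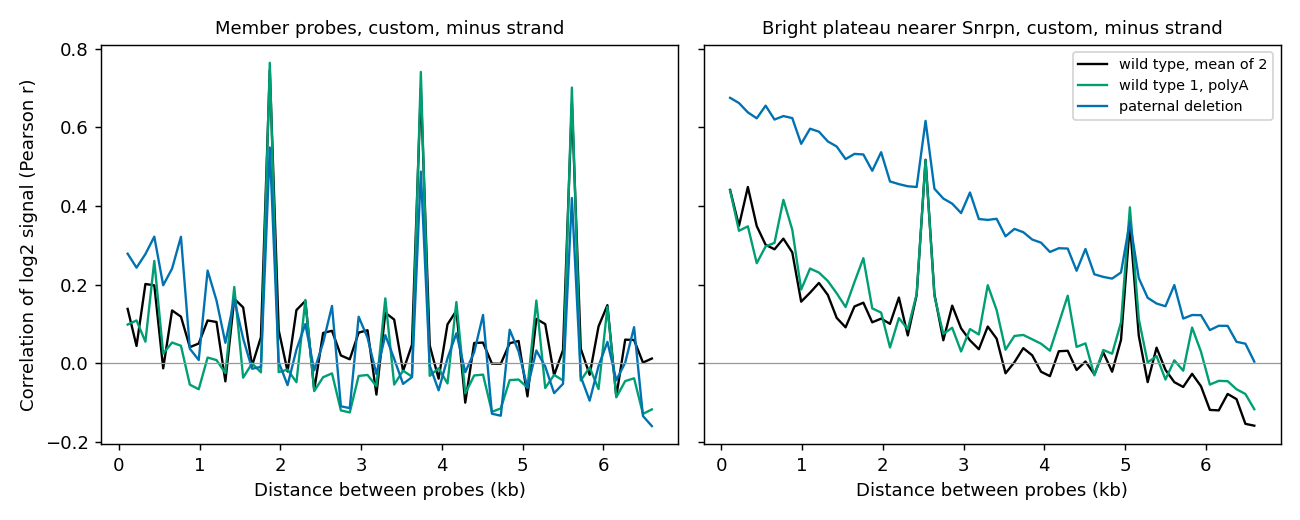
Pearson correlation of log2 signal between custom minus-strand probes against the distance between them, for the members (left) and the other bright plateau (right), in wild type (mean of 2 arrays), polyA RNA of wild type 1 and the paternal deletion. Members peak at 1.87 kb and its multiples, with r = 0.75 in wild type. The wild-type and polyA curves of the other plateau are highest at 2.53 kb, whereas its paternal-deletion curve is highest at the shortest distance, at 0.68.

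The repeat was followed position by position over 40 kb (66820001 to 66860000, 363 custom members), a stretch chosen after seeing the data. Members 17 steps apart were put in the same of 17 position classes, numbered from the lower end, with 21 or 22 members each. The class accounted for 83.1% of the variance of the wild-type level between members, 91.7% and 91.0% in polyA RNA and 72.1% in the paternal deletion. Class means in wild type ran from 4.46 (class 4) to 7.86 (class 7).

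Classes 3 and 7, which lie 440 bp apart, were the brightest and stood out in polyA RNA. Class 3 had 7.91 and 7.77 in the wild types and 5.87 and 5.34 in their polyA RNA. Class 7 had 7.94 and 7.78, and 5.72 and 5.14. Their median raw intensities in polyA RNA were 3960.5 and 2615 for class 3 and 3574 and 2442 for class 7. The pairs differed by -2.04 and -2.43 in class 3 and by -2.22 and -2.64 in class 7, whereas the mean change of the 15 other classes lay between -5.47 and -3.35. Class 6, next to class 7, was the next brightest in wild type with 6.74 and 6.55, yet had only 1.28 and 1.07 in polyA RNA, a mean change of -5.47 and the largest decrease of all classes.

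High polyA levels were then counted beyond that stretch. Over the whole plateau, 64 custom members (2.92% of the 2194 that did not keep their level in the paternal deletion) had a level above 5 on both polyA arrays, from 66606465 to 66861885. Of the 63 gaps between neighbours among them, 17 were of 4 steps, 18 of 13 steps and 15 of 17 steps. Their median wild-type level was 7.88. Of the 64, 37 lie in the 40-kb stretch, where they make up 10.4% of 357 members. The other 27 make up 1.47% of the 1837 members outside it, and 13 of the 25 gaps between neighbours there were of 4, 13 or 17 steps, 11 of them of 17. PolyA RNA was above total RNA in both pairs in 13 of the 78 members that kept their level in the paternal deletion and in 0 of the 2194 others. These 13 include the dim member RC_CUST_6517, with raw intensities of 88.5 and 76 in total RNA and 36.5 and 36 in polyA RNA. Its raw signal fell, so for dim members a higher level in polyA RNA need not mean more signal.

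Another pair of classes stood out in the paternal deletion. Class 9 had 3.32 there against 6.47 and 6.13 in the wild types, and class 10 had 2.72 against 6.30 and 5.96. Their differences of -2.98 and -3.41 compare with -8.06 to -4.32 in the 15 others. Class 9 holds 6 of the 13 lone members that kept their level in the paternal deletion. They lie at 66828445, 66834055, 66835925, 66837795, 66843405 and 66847145, whole numbers of repeats apart because they share a class. They were picked by their small paternal difference, so their paternal-deletion levels of 5.41 to 6.57 are a description. Their partners on the plus strand had wild-type levels of 0.26 to 0.89, unlike those of the 4 runs. The paternal differences within class 9 had an SD of 2.30 between its 21 members, so its members were not alike. In the double deletions class 9 had 3.90 and 5.52, and class 3 had 4.26 and 6.70.

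**Figure D5:**
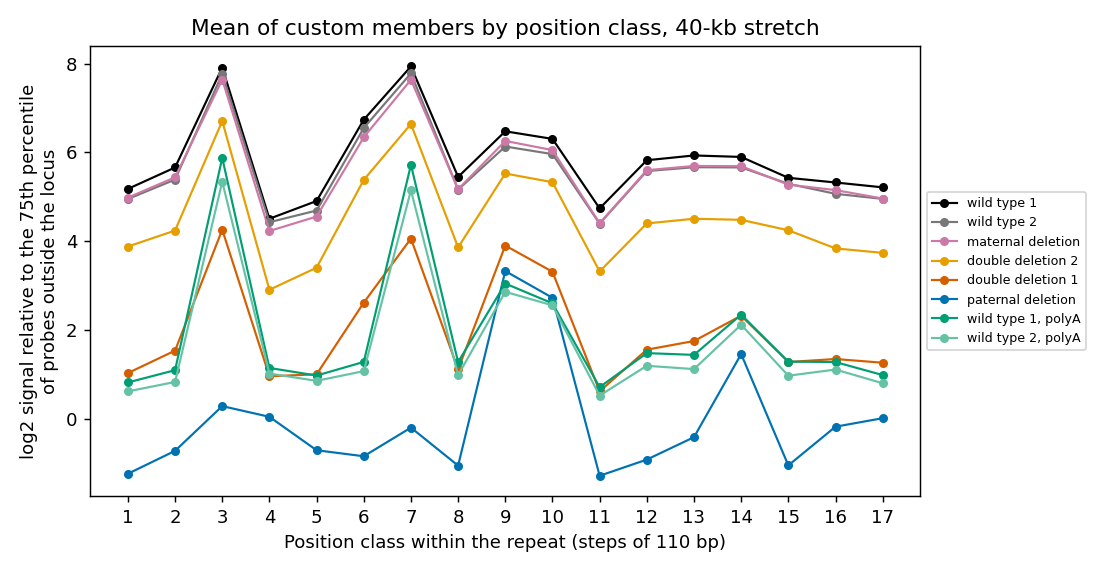
Mean log2 signal of the custom members in each of the 17 position classes of the 1.87-kb repeat, over 40 kb, on each of the 8 arrays, with the 75th percentile of outside-locus probes at 0. Classes 3 and 7 are highest in wild type and polyA RNA, at 5.87 and 5.72 on the polyA array of wild type 1, and classes 9 and 10 are highest in the paternal deletion, at 3.32 and 2.72.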

How the data were processed

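Per the labels' protocols, Cy5-labelled first-strand cDNA of total RNA (15 µg) or of polyA RNA (750 ng, obtained from 30 µg) was hybridised to an Agilent array whose custom probes tile both strands. The 8 arrays lay on 1 slide with 1 scan time in the headers, so no slide or scan batch could be fitted. The deposited scanner files hold the red median intensity of each spot on a linear scale, not normalized across arrays. The files came, per the file headers, from Agilent Feature Extraction 10.7.3.1 on build mm9, and the submitters' processing notes name version 10.9.

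Intensities were background-corrected (normexp, offset 50) with limma 3.58.1 in R 4.3.3, log2-transformed and scaled by the array's 75th percentile over the 3338 probes outside chr7:65790585-67800765. Control spots and outlier spots were left out and spots of 1 probe averaged. The test took probes that all arrays of some group showed well above background, 49384 for total RNA and 43871 for polyA RNA, with lmFit and eBayes (two-sided, Benjamini-Hochberg over all probes or over all 662 windows of 10 kb with at least 3 tested probes, threshold 0.05). The total RNA fit had 6 arrays in 4 groups and the polyA fit the 4 wild-type arrays. The plateau means and their difference from the other plateau entered the fit of the windows. The polyA samples come from the same RNA as the wild types of the same number, per the labels. Their deviations, as replicate 1 minus 2, correlated at r = 0.19 over 43871 probes.

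The left-out windows are 66650001 to 66660000 and 66750001 to 66760000, and the other bright plateau is 66930001 to 67060000. Members and lists were chosen with earlier results of these data known. Windows named are those with the highest and lowest level or change and those at both borders. Probes named are those nearest the median level and those with the largest and smallest paternal change, besides those said to be chosen after their values were seen. The deposited series matrix (18408 catalogue features, intensity times 1 factor per array of 0.859 to 1.984) served as an alternative for catalogue members. Its column medians were 104, 75.4, 89 and 86 for maternal deletion, paternal deletion and wild types, 76.9 and 105.8 (double deletions) and 78.7 and 77.4 (polyA RNA). The choice of its factors is not stated in the labels or headers. Scripts were tested on simulated data. The alternatives were other background corrections, scales, filters and groupings, the replicate block, and leaving out 1 array at a time.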

Additional observations from a re-analysis of the deposited data

How the results depend on the processing

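The fall in polyA RNA kept its direction and its call under all settings run, at -3.91 to -1.58 for the custom mean, -2.58 to -0.56 for the catalogue mean, and -2.34 to -1.30 for the difference from the other plateau. Between 2034 and 2242 custom members were called lower, not counting the setting that adds the left-out windows. The replicate block, which pairs each polyA sample with its total RNA, gave -3.79 (SE 0.036) for the custom mean and changed no call of the means. The genotype tests depended on how the double deletions entered. As separate groups the paternal custom mean (-5.43), catalogue mean (-2.76) and difference from the other plateau (-1.55) passed the threshold, as did those of the double deletion (-2.43, -1.76 and -0.43) and the double against the maternal deletion (-2.28). The calls were then 2206 for the paternal, 2223 for the double and 7 for the maternal deletion. Scaled to all probes, the paternal means were -4.18 and -1.51 and the difference from the other plateau -1.55, the double-deletion means -1.96 and -1.30, and 2161 and 2109 members were called, all past the threshold. The paternal custom and catalogue means also passed with background-subtracted signal (-6.82 and -4.78, with 867 members called), quantile normalization (-4.77 and -2.24) and the scanner software's processed signal (-3.82 and -2.57, with 1552 called). The double-deletion catalogue mean passed with quantile normalization (-1.43). Members called for the double deletion were 29 without background correction, 9 with background subtraction, 42 when scaled on outside probes well above background, and 0 with quantile normalization or with only probes well above background. For these 0, limma is the tool, and the main fit had 611 lower at an unadjusted p under 0.05. The share of all probes called was counted for the main fit and the separate groups. It was also counted on the scale of all probes for the paternal deletion and polyA RNA. For the other settings, and with 1 array left out, it was not counted, so those counts compare settings and say nothing particular to the members.

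Leaving out 1 array at a time gave -5.53 to -5.33, -2.84 to -2.69 and -1.63 to -1.47 for the paternal custom mean, catalogue mean and difference from the other plateau, with 0 to 2207 members called. It gave -3.60 to -1.27, -2.35 to -1.17 and -0.92 to 0.061 for the double deletion, with 0 to 2222 called, the 0 without either wild type. The double against the maternal deletion had -3.45 to -1.11, and the maternal deletion 0 to 7 members called. The difference from the other plateau in the double deletion turned to 0.061 (adjusted p = 0.618) without double-deletion replicate 1. With 1 double deletion left out, the wild types alone set the spread, and the other samples are assumed to vary like it. The series matrix holds no custom probe, so it could not be run for the custom results. The cause of these changes was not tested, beyond the spread of the double deletions that the pooled fit includes. The number of arrays, and on the polyA arrays signal close to background, limit the precision.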
